A study of Mus musculus with 11 samples.

Results

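The genes described here encode the semaphorins, the plexins, the slits, the robos, the netrins and the Unc5 receptors, 6 families of guidance ligands and receptors. They were chosen by their symbols alone, and 44 of the 21846 genes of the count table matched: 20 semaphorins, 9 plexins, 3 slits, 4 robos, 4 netrins and 4 Unc5 genes. RNA was sequenced from 11 cultures of 3 cell lines that had been established from mammary carcinomas of virgin female FVBhuHER2 mice, which carry a human HER2 transgene. MamBo89 (HER2 stable) came from tumor A and remained HER2-positive. MamBo43 (HER2 labile) came from tumor B and was HER2-positive when untreated, and MamBo38 (HER2 loss) was derived from a HER2-negative tumor that injected MamBo43 cells had formed.

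The 5 HER2-positive libraries were MamBo89 untreated, an untreated MamBo89 clone, MamBo89 given trastuzumab under 2 schedules, and untreated MamBo43. The 6 HER2-negative libraries were MamBo38 untreated (2 libraries, called untreated 1 and untreated 2), MamBo38 given trastuzumab under both schedules, and MamBo43 that had lost HER2 under both schedules (MamBo43 TRT). According to the paper, a small share of HER2-positive cells remained detectable in MamBo43 cultured with trastuzumab. Trastuzumab, an antibody against HER2, was given at 30 µg/ml for 60 days, or for 30 days followed by 30 days without it. Libraries of the second schedule are called 30-day libraries below, although 30 days without the antibody followed. The labels give no promoter for the transgene, and each line stands for a single tumor of origin. All 6 HER2-negative libraries came from tumor B and 4 of the 5 HER2-positive ones from tumor A, so that untreated MamBo43 alone separates HER2 status from tumor of origin. A code in the library names was shared by MamBo38 untreated 2 and all MamBo43 and MamBo89 libraries, and another code by the other 3 MamBo38 libraries, and the labels do not say what it stands for. The MamBo89 clone was identified from the study's list of samples, since its label does not call it a clone. Total counts ranged from 17040454 to 27127662 per library, and 3 counts, the detection floor used here, corresponded to 0.112 to 0.179 CPM (counts relative to the TMM-scaled size of the library). No 2 libraries of a line and HER2 state held the same values. Nothing in the labels says that libraries of a group came from separate cultures, so p-values measure the spread between libraries, which may be technical.

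Semaphorins, slits and netrins are extracellular cues that were first known from growing axons and also direct epithelial, endothelial and tumor cells. Class 3 semaphorins are secreted and mostly bind plexin A receptors together with a neuropilin, whereas most class 4 to 7 semaphorins are anchored in the membrane and bind plexins directly. Slits bind robo receptors, and netrins bind Dcc, neogenin and the Unc5 receptors. In the mammary gland, Slit2 and Slit3 with Robo1 limit branching and hold the epithelial layers together, and netrin 1 with neogenin stabilizes the cap cell layer of the growing end bud.

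The sequences before the start sites of 5 members are given first, because these genes include the largest differences in each direction and a pair of chromosome 5 neighbors with opposite changes. Each is the 250 bases before a transcript start in RefSeq (GRCm38.p6, the mm10 build of the labels), on the plus strand, written 5′ to 3′. Capitals mark the E-box CAGGTG or its reverse complement CACCTG, the site bound by Snail and Zeb proteins.
Sema3a, chr5:13396534-13396783: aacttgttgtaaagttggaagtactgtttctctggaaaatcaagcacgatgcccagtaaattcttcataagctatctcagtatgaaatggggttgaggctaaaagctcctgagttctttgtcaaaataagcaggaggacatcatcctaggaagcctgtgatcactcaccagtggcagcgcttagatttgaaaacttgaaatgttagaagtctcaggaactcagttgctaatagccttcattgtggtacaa
Sema3d, chr5:12382916-12383165: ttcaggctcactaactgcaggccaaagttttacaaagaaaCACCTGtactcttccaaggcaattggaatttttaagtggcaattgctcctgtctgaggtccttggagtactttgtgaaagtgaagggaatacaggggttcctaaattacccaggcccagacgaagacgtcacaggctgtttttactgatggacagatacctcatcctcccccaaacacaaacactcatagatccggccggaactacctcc
Robo1, chr16:72662899-72663148: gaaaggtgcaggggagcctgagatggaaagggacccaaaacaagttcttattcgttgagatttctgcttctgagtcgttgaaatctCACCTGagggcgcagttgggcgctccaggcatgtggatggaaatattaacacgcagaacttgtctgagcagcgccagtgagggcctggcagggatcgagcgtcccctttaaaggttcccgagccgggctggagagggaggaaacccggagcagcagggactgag
Slit3, chr11:35121206-35121455: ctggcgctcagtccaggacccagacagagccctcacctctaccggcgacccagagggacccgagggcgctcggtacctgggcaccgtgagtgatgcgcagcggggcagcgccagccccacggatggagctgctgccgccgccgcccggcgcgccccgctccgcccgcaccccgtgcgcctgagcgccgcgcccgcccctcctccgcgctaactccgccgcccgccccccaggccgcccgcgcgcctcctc
Plxnb1, chr9:109095186-109095435: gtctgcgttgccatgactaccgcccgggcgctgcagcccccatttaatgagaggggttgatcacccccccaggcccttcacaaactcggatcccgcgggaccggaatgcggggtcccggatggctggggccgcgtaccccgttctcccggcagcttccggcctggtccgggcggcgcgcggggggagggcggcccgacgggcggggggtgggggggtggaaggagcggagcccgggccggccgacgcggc
The Sema3a and Robo1 windows lie wholly inside the genes as GENCODE M21 draws them, because RefSeq starts these transcripts further downstream. Most of the Slit3 window and the end of the Plxnb1 window also lie inside the genes, which start at 35121224 and 109095389 there. The counts do not tell which start was used. The Slit3 and Plxnb1 windows were rich in CpG (35 and 30 CpG, 78.8% and 75.2% GC), and the Sema3a window was poor in it (2 CpG, 40.8% GC), against a median of 6.0 CpG and 52.4% GC over all 32851 RefSeq promoter windows of that length. RefSeq windows were matched for 36 of the 44 members. The E-box occurred in 7 of their 49 windows (14.3%), against 17.2% of all windows, and a match is a description of letters, not of a bound site.

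Read against gene length, the same 2 receptors led in both HER2 states. Plxnb2, a receptor of class 4 semaphorins, stood at 75.6 ± 8.8 CPM per kb of exon in the HER2-negative libraries (SD, n = 6) and 81.7 ± 15.5 in the HER2-positive ones (SD, n = 5). Unc5b, a netrin receptor, followed at 50.04 ± 23.4 and 58.0 ± 16.5 CPM per kb. Below them the order changed with HER2 status: Sema3a ranked 3 and Slit3 ranked 4 by this measure in the HER2-negative libraries, but 31 and 27 in the HER2-positive ones, whereas Plxnb1 ranked 29 and 6. Of the 44 members, 29 reached 10 CPM in some library. Sema5b and Unc5d had no count in any library, which allows at most 0.112 CPM in the deepest. The 8 members without a call in any comparison and below 10 CPM throughout (Ntn5, Plxna4, Robo3, Robo4, Sema3g, Sema5b, Unc5a and Unc5d) had at most 13 counts in a library.

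**Figure D1:**
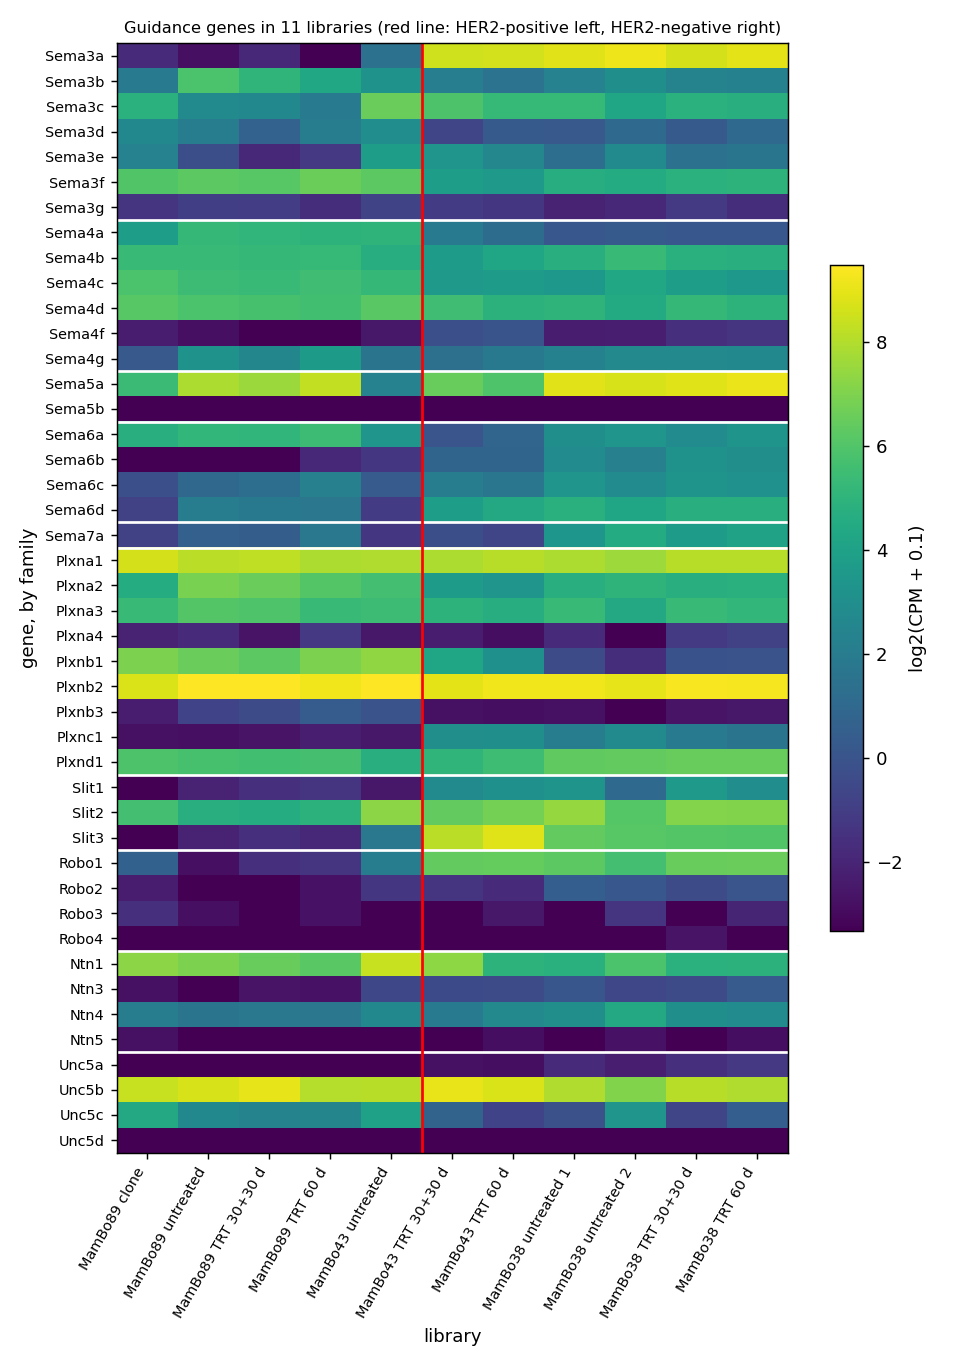
Level of the 44 guidance genes (rows, by family) in the 11 libraries (columns) as log2(CPM + 0.1), with HER2-positive libraries left and HER2-negative libraries right of the red line. Sema3a, Slit1, Slit3, Robo1 and Plxnc1 are dark on the left and bright on the right, and Plxnb1 and Sema4a show the reverse.

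The study asked which genes separate HER2-negative from HER2-positive cells, and the first comparison sets all 6 HER2-negative against all 5 HER2-positive libraries. Of the 33 members with enough counts for a test, 22 were called (edgeR adjusted p under 0.1 with a log2 fold change of 1 or more in size), 12 higher and 10 lower in the HER2-negative libraries. The called share, 66.7%, stood beside 32.8% of all 12364 genes tested (15.8% higher and 17.0% lower). The median log2 fold change of the 33 members was -0.11 and that of all genes tested -0.04, so the members moved in both directions. In 12 of the 33, no HER2-negative library overlapped a HER2-positive one (7 higher and 5 lower), beside 34.9% of all genes tested (17.6% higher and 17.3% lower). The fitted change was above 0 for 16 of the 33, beside 48.3% of all genes. With the tumor of origin added to the fit as a term, 17 members were called, beside 26.5% of all genes, and 14 of them were among the 22: Ntn3, Ntn4, Plxna2, Sema3b, Sema6a, Sema7a, Unc5c and Slit2 lost their calls, Slit2 turned to -0.35, and Sema4d (-1.15), Sema5a (6.12) and Plxnd1 (1.46) gained one. With the name code as a term instead, 19 were called, beside 30.4% of all genes, and Ntn1 (-0.92), Slit2 (0.63) and Unc5c (-1.41) lost their calls. Among the libraries that share the code of MamBo38 untreated 2 alone, those 3 and Sema6c (1.16), Sema7a (2.57) and Ntn3 (1.97) were not called. With counts summed per line and HER2 state (2 sums against 2), none was called by edgeR, beside 4 of 13399 genes. The call rule is that of the study, and the called members were not chosen independently of these libraries, since earlier results of these data were known.

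**Figure D2:**
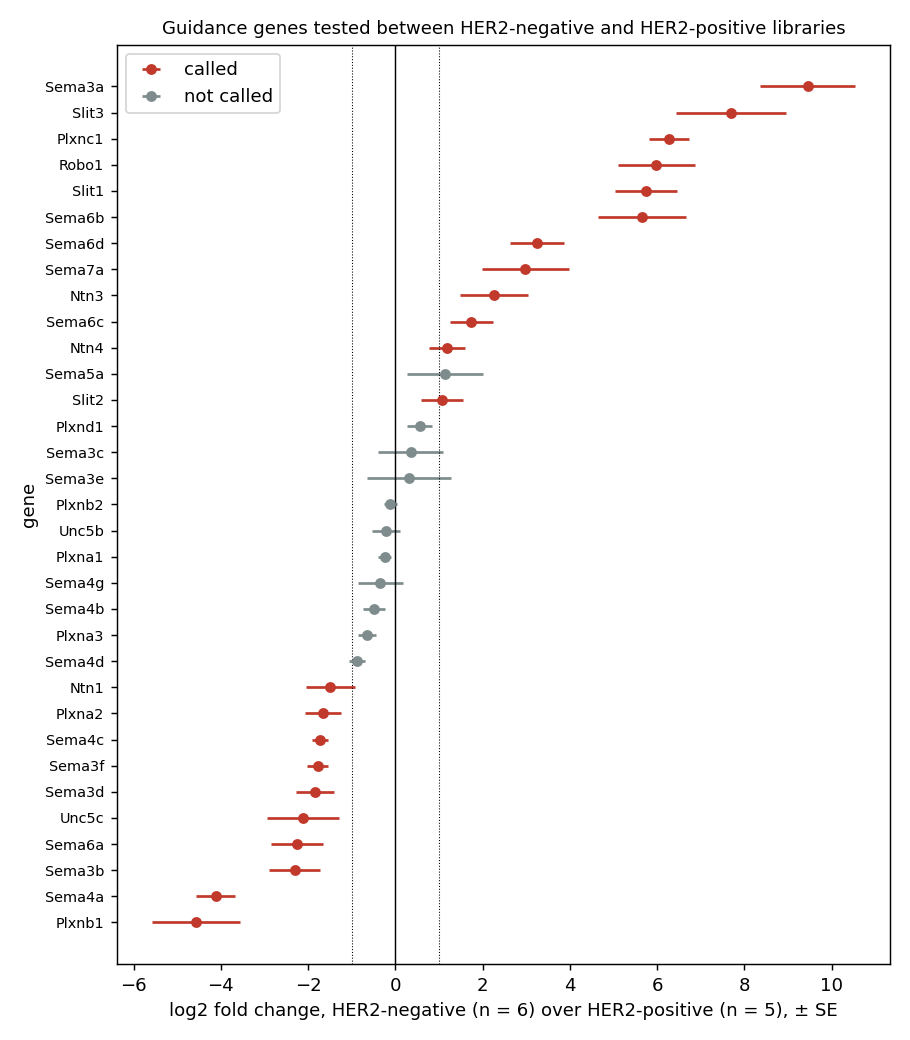
Log2 fold change of HER2-negative over HER2-positive libraries (horizontal axis) for the 33 tested guidance genes, sorted, with the SE as bars; red points were called and dotted lines mark a log2 fold change of 1 in either direction. Sema3a, at 9.45, and Plxnb1, at -4.57, stand at the ends.

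Among the secreted class 3 semaphorins, Sema3a, a repulsive cue that acts through neuropilin 1 and plexin A receptors, differed most of all members. Its level was 478, 582, 402 and 491 CPM in MamBo38 (untreated 1, untreated 2, and trastuzumab for 30 and for 60 days), and 375 and 396 CPM in MamBo43 TRT (30 and 60 days). Untreated MamBo43 had 2.63 CPM (67 counts), and the MamBo89 libraries had between 0 and 0.194 CPM (0 to 4 counts). All 6 HER2-negative libraries lay far above all 5 others (log2 fold change 9.45 ± 1.09 (SE), edgeR adjusted p = 4.73e-05). The size rests on few MamBo89 counts and ranged from 9.15 to 12.02 over the fits that left out a library.

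The other class 3 semaphorins that were called were lower. Sema3f, which signals through neuropilin 2 and is known as an inhibitor of tumor angiogenesis, was at 12.04 to 31.3 CPM in the HER2-negative libraries (median 24.2). Its HER2-positive values were 64.8 in the MamBo89 clone, 77.4, 72.1 and 96.8 CPM in the other MamBo89 libraries (untreated, then trastuzumab for 30 and for 60 days), and 75.9 CPM in untreated MamBo43. The groups did not overlap, and the log2 fold change was -1.78 ± 0.24 (SE, edgeR adjusted p = 0.000143). Sema3b, its neighbor 72.3 kb away on chromosome 9 and another growth-inhibiting semaphorin, was at 2.83 to 8.20 CPM in the HER2-negative libraries, and at 3.88 CPM in the MamBo89 clone against 20.3 to 58.4 CPM in the other MamBo89 libraries and 9.02 CPM in untreated MamBo43. The HER2-positive values spread widely and overlapped with the others (log2 fold change -2.31 ± 0.58 (SE), edgeR adjusted p = 0.00616). Sema3d was at 0.539 to 2.01 CPM in the HER2-negative and 1.52 to 7.69 CPM in the HER2-positive libraries (-1.84 ± 0.44 (SE), edgeR adjusted p = 0.00476). Sema3d and Sema3a lie 536.5 kb apart on chromosome 5 and thus changed in opposite directions.

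Sema3e, 422.7 kb beyond Sema3a and the ligand of plexin D1, was not called, with 2.41 to 10.3 CPM in the HER2-negative and 0.175 to 14.5 CPM in the HER2-positive libraries (log2 fold change 0.31 ± 0.95 (SE), edgeR adjusted p = 0.804). Its highest value was in untreated MamBo43, and MamBo89 without the clone was below 1 CPM. Sema3c was not called either (0.35 ± 0.75 (SE), edgeR adjusted p = 0.721), with 93.98 CPM in untreated MamBo43 and 3.63 to 28.7 CPM in MamBo89. Without untreated MamBo43, Sema3c was called higher in the HER2-negative libraries (log2 fold change 1.65, edgeR adjusted p = 0.0309), and within tumor B it was called lower (-1.43).

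Of the membrane-bound class 4 semaphorins, 2 were called, both lower. Sema4a, which binds plexins and Tim2 and is best known from immune cells, was at 1.01, 1.12, 1.01 and 1.01 CPM in MamBo38 (in the order given for Sema3a), at 3.83 and 2.22 CPM in MamBo43 TRT, and at 31.6 CPM in untreated MamBo43. MamBo89 had 14.1 CPM in the clone and 31.2 to 37.3 CPM in the other libraries. MamBo43 TRT thus stood between MamBo38 and all HER2-positive libraries (log2 fold change -4.12 ± 0.44 (SE), edgeR adjusted p = 3.04e-05). Sema4c, a ligand of plexin B2, was at 11.3 to 20.3 CPM in the HER2-negative and 37.0 to 58.3 CPM in the HER2-positive libraries, with no overlap (-1.72 ± 0.19 (SE), edgeR adjusted p = 3.05e-05), although 5.28% of its exon sequence, cut into windows of 75 bases, was shared with an antisense gene. Sema4d, the classical ligand of plexin B1, was at 22.6 to 47.2 CPM in the HER2-negative and 49.4 to 74.0 CPM in the HER2-positive libraries. The Sema4d groups did not overlap either, but its log2 fold change, -0.88 ± 0.18 (SE, edgeR adjusted p = 0.00196), stayed under the required size. Sema4b (13.5 to 40.9 CPM over all libraries) and Sema4g (1.11 to 12.5 CPM) were not called, with log2 fold changes of -0.49 and -0.34. Sema4f had too few counts for the test, 0 to 2 in each HER2-positive library and 2 to 24 in each HER2-negative one.

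The class 6 semaphorins, which can also act as receptors, split. Sema6d, a ligand of plexin A1, was at 27.6, 19.0, 26.5 and 26.9 CPM in MamBo38 and at 13.9 and 20.8 CPM in MamBo43 TRT. Untreated MamBo43 had 0.392 CPM, the MamBo89 clone 0.485 CPM and the other MamBo89 libraries 3.25 to 4.19 CPM. The groups did not overlap (log2 fold change 3.25 ± 0.61 (SE), edgeR adjusted p = 0.0011). Sema6b had at most 8 counts in a HER2-positive library and was at 1.62 to 9.12 CPM in the HER2-negative ones (5.66 ± 1.01 (SE), edgeR adjusted p = 0.000804), a fitted size that depends on the prior count because 3 of the MamBo89 libraries had none. Sema6c was at 3.13 to 10.2 CPM in the HER2-negative and 0.775 to 4.62 CPM in the HER2-positive libraries (1.74 ± 0.49 (SE), edgeR adjusted p = 0.012).

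Sema6a went the other way, from 10.2 CPM in untreated MamBo43 and 26.0 to 44.5 CPM in MamBo89 to 7.27 to 10.3 CPM in MamBo38 and 0.932 and 1.68 CPM in MamBo43 TRT (log2 fold change -2.26 ± 0.60 (SE), edgeR adjusted p = 0.00834). Untreated MamBo43 fell within the range of MamBo38 for this gene. Sema7a, a lipid-anchored semaphorin that binds plexin C1 and integrins, was called higher (2.97 ± 0.997 (SE), edgeR adjusted p = 0.0265). Its high values were in MamBo38 alone, at 10.6, 23.1, 13.6 and 16.7 CPM, while MamBo43 TRT, at 0.736 and 0.535 CPM, lay within the HER2-positive range of 0.314 to 3.41 CPM. Sema5a, which carries thrombospondin repeats and has the greatest exon length of the semaphorins here, ranged from 4.94 to 555 CPM and was not called (1.13 ± 0.87 (SE), edgeR adjusted p = 0.294), although all 4 MamBo38 libraries (415 to 555 CPM) exceeded every other library.

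Plxnc1, the receptor of Sema7a, was present in all HER2-negative libraries at 4.24, 6.81, 3.76 and 2.92 CPM in MamBo38 and 8.04 and 8.25 CPM in MamBo43 TRT. Each HER2-positive library had 1 or 2 counts for it, at most 0.11 CPM. The groups were separate (log2 fold change 6.26 ± 0.46 (SE), edgeR adjusted p = 3.45e-06), and the size rests on these few counts. Receptor and ligand did not coincide in MamBo43 TRT, where Plxnc1 was highest and Sema7a near its HER2-positive level.

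Plxnb1, which signals to RhoA through its PDZ-binding end and can associate with HER2 and Met, had the deepest fall. Untreated MamBo43 had 162 CPM and MamBo89 had 126 (clone), 94.0, 77.03 and 124 CPM. MamBo43 TRT had 18.4 and 8.48 CPM, and MamBo38 had 0.674, 0.223, 0.834 and 0.862 CPM. The levels formed 3 steps without overlap (log2 fold change -4.57 ± 1.01 (SE), edgeR adjusted p = 0.00301). The part that HER2-positive cells left in MamBo43 TRT play in the middle step was not tested. Plxna2 was also lower, at 10.01 to 32.3 CPM against 24.5 CPM in the MamBo89 clone and 51.1 to 121 CPM in the other HER2-positive libraries (-1.66 ± 0.41 (SE), edgeR adjusted p = 0.00575). Plxna1, Plxna3, Plxnb2 and Plxnd1 were not called, with log2 fold changes of -0.25, -0.65, -0.11 and 0.55. Their levels were 196 to 408 CPM for Plxna1, 21.5 to 66.3 CPM for Plxna3, 436 to 717 CPM for Plxnb2 and 25.8 to 90.7 CPM for Plxnd1. Plxnb3 was not tested in this comparison, with 0 to 2 counts in each HER2-negative library and 2 to 22 in each HER2-positive one.

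All 3 slits were called higher, together with Robo1, the only robo with enough counts for this test. Slit3 was at 84.7, 72.0, 66.6 and 64.5 CPM in MamBo38 and at 281 and 464 CPM in MamBo43 TRT. Untreated MamBo43 had 3.37 CPM, and the MamBo89 libraries had 0 to 4 counts each, at most 0.233 CPM. No HER2-negative library overlapped a HER2-positive one (log2 fold change 7.69 ± 1.26 (SE), edgeR adjusted p = 0.000443). The size again rests on few MamBo89 counts and ranged from 7.10 to 10.3 over the fits that left out a library. Slit1 was at 9.97, 1.95, 11.98 and 7.72 CPM in MamBo38 and 7.01 and 8.64 CPM in MamBo43 TRT, and had at most 5 counts in each HER2-positive library (5.75 ± 0.72 (SE), edgeR adjusted p = 7.37e-05). Its lowest HER2-negative value was that of MamBo38 untreated 2.

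Slit2 did not separate the groups. It was at 67.8 to 174 CPM in the HER2-negative libraries (median 123), at 24.1 to 50.5 CPM in MamBo89, and at 151 CPM in untreated MamBo43. Its call was at the edge (log2 fold change 1.07 ± 0.49 (SE), edgeR adjusted p = 0.0864) and held in 3 of the 11 fits that left out a library. Within tumor B, which removes MamBo89, the Slit2 log2 fold change was -0.38.

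Robo1, a slit receptor of the mammary epithelium, was at 77.01, 49.7, 91.2 and 94.8 CPM in MamBo38 and at 85.5 and 88.4 CPM in MamBo43 TRT. Untreated MamBo43 had 4.16 CPM, the MamBo89 clone 1.502 CPM, and the other MamBo89 libraries 1 to 5 counts each. The groups did not overlap (log2 fold change 5.98 ± 0.88 (SE), edgeR adjusted p = 0.000228). Slit3 and Robo1, ligand and receptor, were therefore both high in the 6 HER2-negative libraries and both low in the 5 others. Robo2, 845.7 kb from Robo1 on chromosome 16, had 5 to 27 counts in each HER2-negative library and at most 8 in a HER2-positive one.

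Of the netrins and their receptors, Ntn1 and Unc5c were lower and Ntn3 and Ntn4 higher. Ntn1 was at 27.5 to 57.1 CPM in MamBo38, and at 160 CPM in the 30-day and 31.5 CPM in the 60-day MamBo43 TRT library. MamBo89 had 73.2 to 151 CPM and untreated MamBo43 had 341 CPM (log2 fold change -1.49 ± 0.56 (SE), edgeR adjusted p = 0.0426). The value of 160 CPM lay inside the HER2-positive range, and without untreated MamBo43 the change was -0.99 (edgeR adjusted p = 0.128) and was not called. Unc5c was at 0.497 to 10.3 CPM in the HER2-negative and 5.25 to 20.98 CPM in the HER2-positive libraries (-2.12 ± 0.83 (SE), edgeR adjusted p = 0.0498). Its call was lost without the MamBo89 clone (-1.72, edgeR adjusted p = 0.119), and it held in 4 of 13 alternatives other than leaving out each library in turn. Ntn4, a laminin-binding netrin of basement membranes, was at 3.83 to 21.1 CPM in the HER2-negative and 2.99 to 6.12 CPM in the HER2-positive libraries (1.19 ± 0.41 (SE), edgeR adjusted p = 0.0303). Without MamBo38 untreated 2, which holds the value of 21.1 CPM, it fell below the required size (0.77). Ntn3 stayed under 1.2 CPM in every library (2.25 ± 0.78 (SE), edgeR adjusted p = 0.03). Unc5b, at 133 to 537 CPM over all libraries, was not called (-0.21 ± 0.32 (SE), edgeR adjusted p = 0.602).

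**Figure D3:**
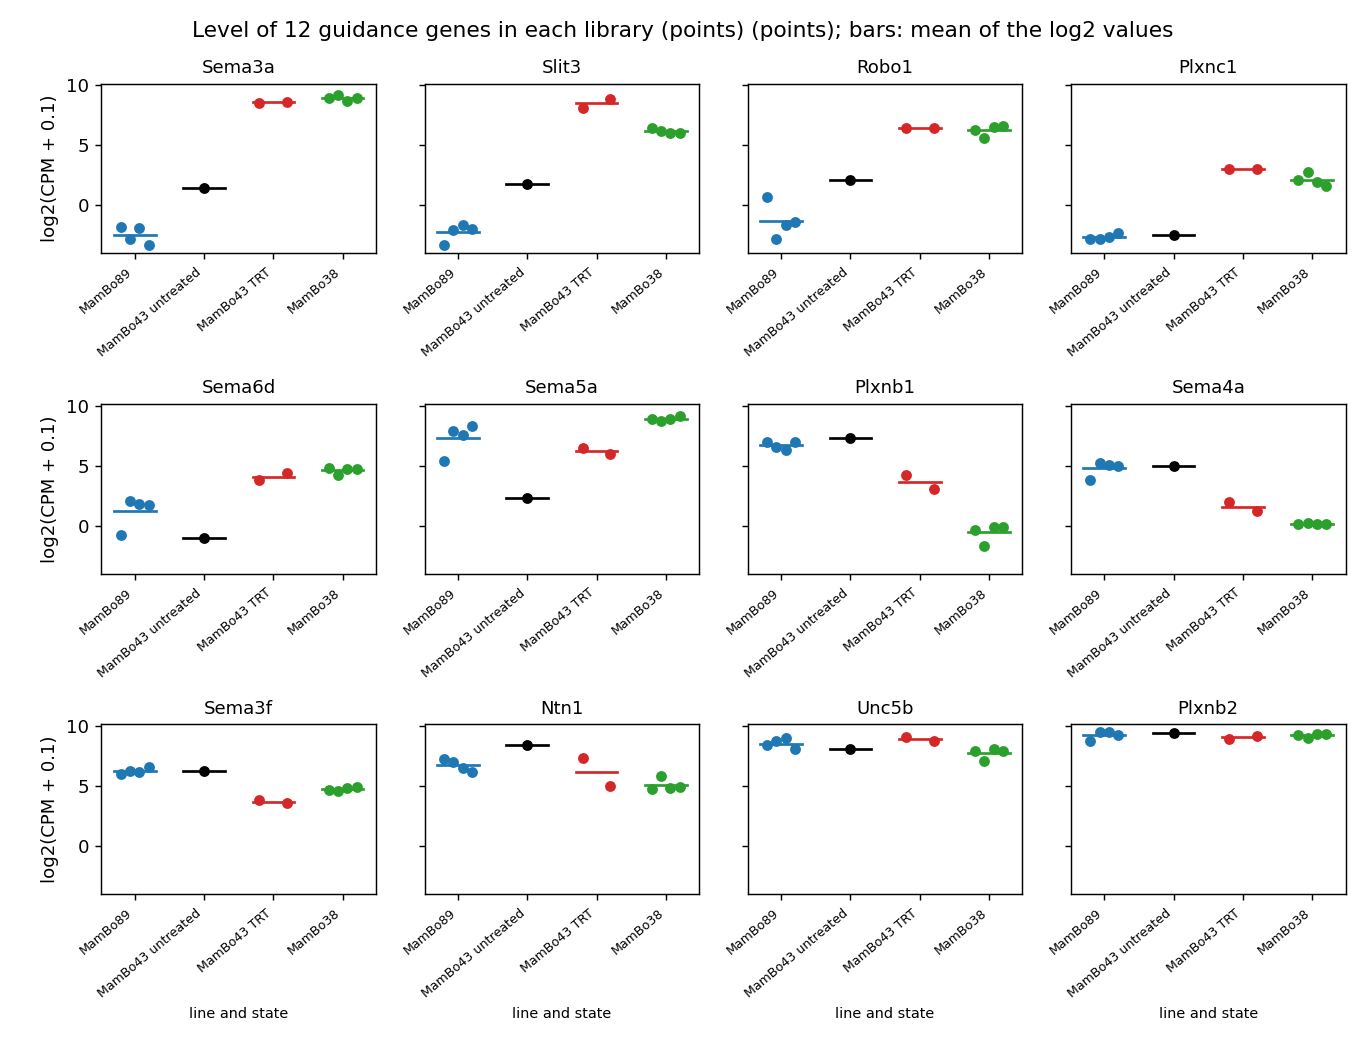
Level of 12 guidance genes as log2(CPM + 0.1) (vertical axes) in each library (points) of MamBo89, untreated MamBo43, MamBo43 TRT and MamBo38 (horizontal axes), with bars at the mean of the log2 values. Plxnb1 steps down from left to right, Sema3a and Robo1 are high in both HER2-negative states, and Slit3 is highest in MamBo43 TRT.

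Of 64 other genes of these pathways (co-receptors, further ligands, proteases and intracellular effectors), 56 were tested in this comparison, of which 11 were higher, 12 lower and 33 not called. The called share was 41.1%, beside 32.8% of all genes tested (15.8% higher and 17.0% lower). By list, 4 of 13 tested co-receptors and guidance receptors were higher and 3 lower, of 3 tested other ligands 1 was lower, none of 3 proteases was called by edgeR, and 7 of 37 intracellular effectors were higher and 8 lower. The largest changes were in Chl1, a neuropilin 1-binding adhesion molecule, at 89.2 to 148 CPM in MamBo89 and at most 1.32 CPM in every other library (-8.07 ± 1.15 (SE), edgeR adjusted p = 0.000186). Chl1 thus followed the line MamBo89 and not HER2 status in MamBo43, where the untreated library had 0.863 CPM.

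Dpysl3, a collapsin response mediator acting downstream of Sema3a, was at 190 to 341 CPM in the HER2-negative libraries, 4.04 CPM in untreated MamBo43 and at most 1.65 CPM in MamBo89 (7.86 ± 0.92 (SE), edgeR adjusted p = 5.13e-05). Mical1, an actin-oxidizing enzyme that binds plexins, was at 2.60 to 5.19 CPM in the HER2-negative libraries and at most 2 counts in the others (6.80). Flrt2 (4.25), which binds Unc5 receptors, and Fes (3.48), a kinase downstream of Sema3a, were higher, and Dpysl5 (-4.43) was lower. Nrp1 (0.51, edgeR adjusted p = 0.579), the co-receptor of Sema3a, was at 38.1 CPM in untreated MamBo43, 9.07 to 18.6 CPM in the HER2-negative libraries and 1.69 to 5.18 CPM in MamBo89. Nrp2, the co-receptor of Sema3f, was at 547 to 801 CPM in the HER2-negative and 195 to 490 CPM in the HER2-positive libraries, without overlap, but its log2 fold change of 0.94 was below the required size. Neo1, a netrin receptor, was at 144 to 272 CPM in the HER2-negative and 190 to 642 CPM in the HER2-positive libraries (-0.90, not called), and Dcc had 1 count in a single library.

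The summed epithelial and the summed fibroblast and pericyte markers separated the HER2 states in the same libraries, and the other summed lists overlapped. Single markers could go the other way, as Krt14 did at 111 CPM in the 60-day MamBo43 TRT library. The summed level of 7 epithelial markers was 2316 to 3716 CPM in the HER2-positive libraries. It was 1754 CPM in the 30-day and 391 CPM in the 60-day MamBo43 TRT library. In MamBo38 the sum was 1.25 to 2.47 CPM, and Epcam there was at most 0.279 CPM. The epithelial markers of a mammary carcinoma were thus close to absent in MamBo38. Of these 7 markers 5 were tested and 2 were called, both lower. The sum of 6 fibroblast and pericyte markers was 36.0 to 314 CPM in the HER2-positive and 3659 to 7229 CPM in the HER2-negative libraries, and all 4 tested were higher. The sum of 6 endothelial markers was at most 0.893 CPM anywhere. Of 7 leukocyte markers (1.14 to 16.7 CPM in the HER2-positive, 3.78 to 50.1 CPM in the HER2-negative libraries), Cd68 made up most, and Cd3e was at 0 and Ptprc at no more than 0.0558 CPM. Of the neuron markers, Snap25 and Stmn2 were at 0 in every library. The part that these markers' cell states play in the changes of guidance genes was not tested. In such bulk cultures, fewer cells of a type and less RNA per cell cannot be told apart.

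The comparison of MamBo43 TRT (n = 2) with untreated MamBo43 (n = 1) is the only one of HER2 status within a line, with the spread taken from all 6 groups. Of 37 members tested, 20 were called by edgeR, 10 higher and 10 lower (54.1%), beside 28.5% of 13782 genes (13.2% higher and 15.3% lower). It shares untreated MamBo43 with the comparisons below and all 3 of its libraries with the one above, so its values are no independent evidence of those. The higher members were Sema3a (log2 fold change 7.20 ± 0.56), Slit3 (6.79 ± 0.54), Plxnc1 (6.60 ± 0.73), Slit1 (6.54 ± 1.42), Sema6d (5.45 ± 1.16), Robo1 (4.39 ± 0.88), Sema5a (3.93 ± 0.98), Sema4f (3.35 ± 0.97), Sema6b (2.36 ± 0.84) and Sema6c (1.61 ± 0.65), each with its SE. Untreated MamBo43 had 2 counts each for Plxnc1, Slit1 and Sema4f, so these 3 fitted sizes depend on the prior count.

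The lower members were Unc5c (-3.99 ± 1.24), Plxnb1 (-3.59 ± 0.48), Sema4a (-3.39 ± 0.51), Sema3d (-3.16 ± 0.71), Sema6a (-2.94 ± 0.39), Sema3f (-2.52 ± 0.23), Plxna2 (-2.15 ± 0.68), Ntn1 (-1.83 ± 0.72), Sema4c (-1.54 ± 0.34) and Plxnb3 (-4.14 ± 1.14), again with the SE. The Plxnb3 size rests on few counts, 22 in untreated MamBo43 and 1 in each MamBo43 TRT library. In the 30-day and the 60-day MamBo43 TRT library, Plxnb1 stood at 11.4% and 5.24% of its level in untreated MamBo43. In the same order, Sema3f stood at 18.9% and 15.9%, Ntn1 at 46.8% and 9.24%, and Plxna2 at 25.4% and 19.6%. Sema4a stood at 12.1% and 7.02%, and Unc5c at 9.69% and 3.07%. Sema6a (9.14% and 16.5%), Sema3d (7.02% and 14.9%) and Sema4c (32.4% and 36.4%) were higher in the 60-day library. The summed epithelial markers stood at 55.8% and 12.4%, Epcam at 25.0% and 4.84%, and Cdh1 at 25.9% and 9.26% in the same libraries. Within that list Krt8 and Krt18 were at 73.2% and 84.1% in the 30-day library, and near 10% in the 60-day library (9.99% and 10.1%). Krt14 went the other way, from 2.39 CPM in untreated MamBo43 to 9.91 and 111 CPM, and Krt5 from 0 to 0.049 and 3.82 CPM. Plxnb1 and Epcam were thus each lower in the 60-day than in the 30-day library, while Sema3f was at nearly the same share in both. The 30-day library had also passed 30 days without trastuzumab, so these libraries do not form a time course. The part of the epithelial markers in the result was not tested. Slit2 (-0.63, edgeR adjusted p = 0.384) and Sema7a (0.997, edgeR adjusted p = 0.46) were not called. Ntn1, Plxna2, Plxnb3, Sema4f, Sema6b, Sema6c and Unc5c lost their calls without the 60-day MamBo43 TRT library, a fit with a single library in each MamBo43 group. Sema6b and Sema6c were also lost without the 30-day library, and these and Ntn1 in some fits without a library of another line.

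MamBo38 lost HER2 in a mouse, and MamBo43 TRT lost it in culture under trastuzumab. Between them, 16 of 35 tested members were called by edgeR (45.7%, beside 21.6% of 12545 genes, with 11.7% higher and 9.90% lower), 9 higher and 7 lower in MamBo38 (n = 4) than in MamBo43 TRT (n = 2). Sema7a differed most among those higher (log2 fold change 4.66 ± 0.43 (SE), edgeR adjusted p = 0.000385), followed by Sema6a (2.74 ± 0.32) and Sema5a (2.67 ± 0.20). Sema5a was at 415 to 555 CPM in MamBo38 and at 89.5 and 61.4 CPM in MamBo43 TRT. Sema6b (2.15), Robo2 (2.003), Sema6c (1.32), Plxna2 (1.295), Plxnd1 (1.13) and Sema3f (1.04) were higher too.

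Plxnb1 (-4.34 ± 0.47 (SE), edgeR adjusted p = 0.000693), Slit3 (-2.38 ± 0.20 (SE), edgeR adjusted p = 0.000288), Sema4f (-2.13), Sema4a (-1.53), Ntn1 (-1.41), Sema3e (-1.16) and Unc5b (-1.11) were lower in MamBo38. The Ntn1 difference rested on the MamBo43 TRT library of 30 days, without which it was 0.17. Without that library, Plxnd1 (0.90), Unc5b (-0.96) and Sema3e (-0.75) were not called either. Unc5b was also lost without MamBo38 untreated 2 (-0.92), and Sema3f without the 60-day MamBo43 TRT library (0.90) or without either treated MamBo38 library. Ntn1 and Sema3e were lost too without MamBo38 untreated 1 or either treated MamBo38 library. Several members that rose in MamBo43 TRT were not called between them: Sema3a (0.34 ± 0.15), Robo1 (-0.16 ± 0.24), Slit1 (0.01 ± 0.58) and Plxnc1 (-0.89 ± 0.33), each with its SE. A missing call does not show that these levels were equal, and the epithelial markers that MamBo43 TRT retained differed between the same libraries, a part not tested. Of the 4 MamBo38 libraries, untreated 2 alone shares its name code with MamBo43 TRT. With it as the only MamBo38 library, 14 members were called, beside 20.9% of all genes, and 9 of these 14 were among the 16. Sema4f, Ntn1, Sema4a, Sema3f, Sema6c, Robo2 and Sema3e lost their calls in that fit, and Slit1 had a log2 fold change of -2.00.

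**Figure D4:**
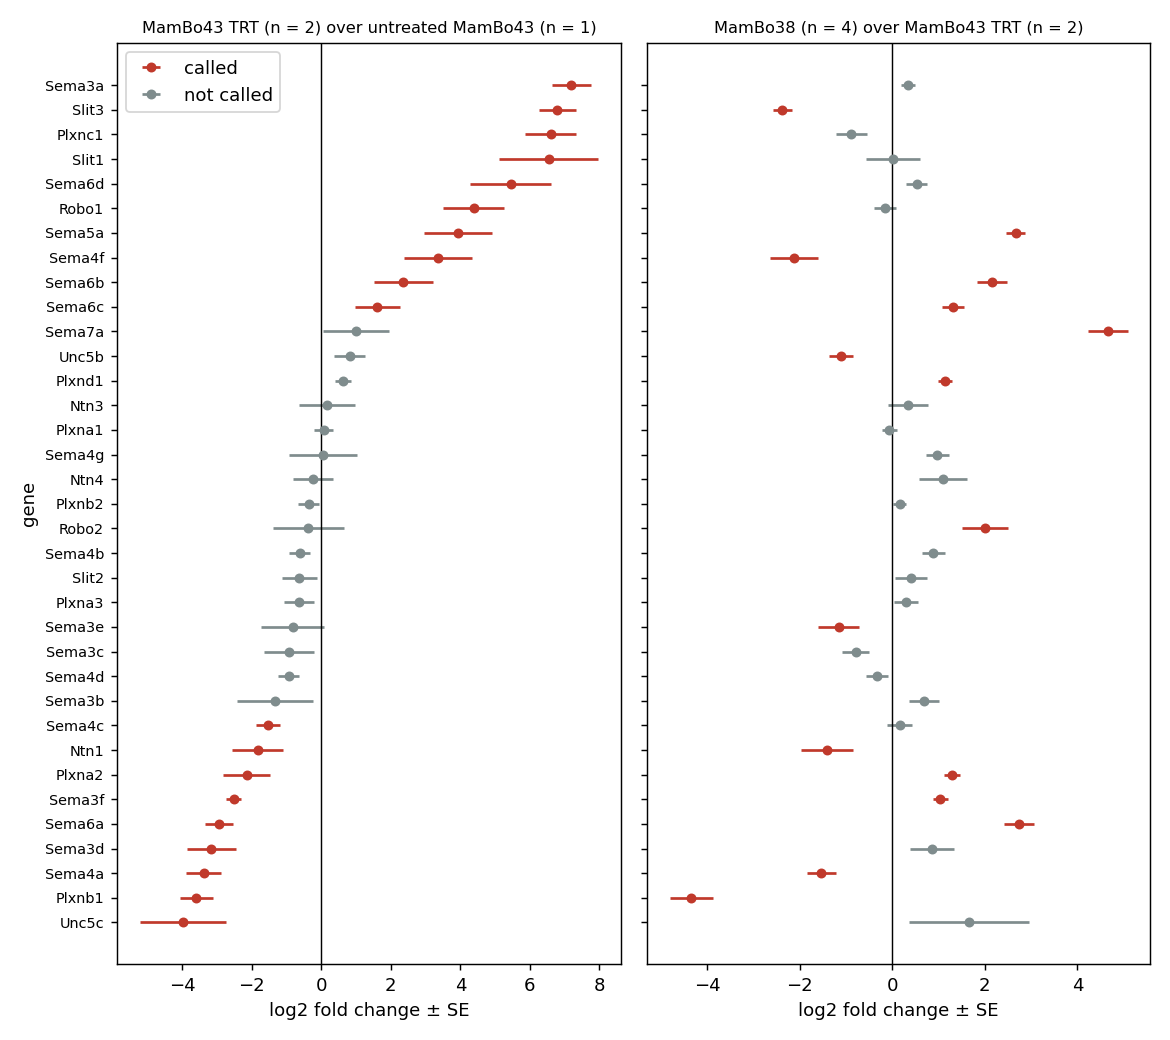
Log2 fold change ± SE (horizontal axes) of the guidance genes tested in both comparisons, for MamBo43 TRT over untreated MamBo43 (left) and MamBo38 over MamBo43 TRT (right), sorted by the left panel; red points were called. Sema3a, Robo1 and Slit1 rise on the left with values near 0 on the right, and Plxnb1 lies far below 0 in both.

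The study also compared the HER2-labile with the HER2-stable line. Untreated MamBo43 (n = 1) differed from untreated MamBo89 and its clone (n = 2) in 4 of 32 tested members (12.5%), beside 7.40% of 12867 genes (4.87% higher and 2.53% lower). Slit3 (log2 fold change 5.50 ± 1.70 (SE), edgeR adjusted p = 0.0759), Sema3c (2.41 ± 0.61 (SE), edgeR adjusted p = 0.0263) and Slit2 (1.98 ± 0.47 (SE), edgeR adjusted p = 0.0177) were higher in MamBo43. Sema5a was lower (-4.79 ± 0.87 (SE), edgeR adjusted p = 0.00217), at 4.94 CPM in MamBo43 against 42.2 CPM in the clone and 237 CPM in the parental MamBo89 line. Slit3 was at 86 counts in untreated MamBo43 against 0 and 3, and its call was lost under DESeq2 (adjusted p = 0.13) and under RLE size factors in edgeR (adjusted p = 0.103). The Sema3c call was lost when 10 counts were required in each library, a requirement that Sema3c itself met. MamBo43 is a single library here, so line and library cannot be told apart.

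Trastuzumab itself was followed in the lines that kept their HER2 state. Within MamBo89 (2 treated against 2 untreated), none of 27 tested members was called by edgeR or by DESeq2, beside 0 of 12046 genes by edgeR. An unadjusted edgeR p under 0.05 was found for 186 of these genes, 3 of them members: Sema3e (-3.48), Sema3c (-1.88) and Ntn1 (-0.75). The clone had the highest value of the 4 libraries for all 3. Within MamBo38 (2 against 2), none of 34 members was called by edgeR or DESeq2, beside 0 of 11861 genes by edgeR. None of the 34 had an unadjusted edgeR p under 0.05, beside 503 of the 11861 genes. The log2 fold changes ranged from -3.48 to 1.64 in MamBo89 and from -2.51 to 0.88 in MamBo38. Leaving out the parental MamBo89 library raised the number of called members in MamBo89, but that fit set the clone alone against the treated libraries. Leaving out MamBo38 untreated 1 raised the number in MamBo38, but untreated 2 then stood alone. Its name code differs from that of both treated MamBo38 libraries. These fits cannot separate trastuzumab from the clone or from the code.

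The difference between the trastuzumab effect in MamBo43 and that in MamBo89, tested as an interaction, was called for 13 of 37 members (35.1%, beside 22.2% of 13782 genes, with 11.1% positive and 11.2% negative), 7 positive and 6 negative. Sema3a (7.65 ± 1.32), Robo1 (5.96 ± 1.3), Plxnc1 (5.83 ± 1.29), Slit3 (5.38 ± 1.47) and Sema6d (4.93 ± 1.305) were among the positive ones, and Sema4a (-3.73 ± 0.67), Plxnb1 (-3.45 ± 0.62), Sema6a (-3.28 ± 0.50) and Sema3f (-2.76 ± 0.30) among the negative ones, as differences of log2 fold changes with the SE. For Sema3a, trastuzumab went with a change from 2.63 to 375 and 396 CPM in MamBo43, and MamBo89 had 0 to 4 counts with and without it. The Robo1 value depended on the MamBo89 clone and was 2.04 without it (edgeR adjusted p = 0.463). The Slit3 value depended on the parental MamBo89 library and was 1.69 without it (edgeR adjusted p = 0.884). Sema3a was 6.37 without the clone (edgeR adjusted p = 0.111). Sema6d and Slit3 missed the adjusted p threshold without the MamBo89 library of 60 days (4.88 and 5.15). Over all libraries left out, the Sema6d value ranged from 2.67 to 5.74.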

How the data were processed

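Libraries were read as single ends of 75 nucleotides. According to the study's methods and the submitters' processing notes, the authors demultiplexed with bcl2fastq, aligned with STAR 2.5 and obtained the expected counts that they deposited with RSEM 1.3.0, on the mm10 build; the values are whole numbers, not normalized. From these counts, CPM and tests were computed here in R 4.3.3 with edgeR 4.0.16. CPM use the TMM-scaled library sizes of all 11 libraries. Genes were kept by filterByExpr (minimum count 10, minimum total 15) within each comparison and tested by glmQLFit and glmQLFTest, p-values were adjusted by the Benjamini-Hochberg method over every gene kept, and the study's thresholds (adjusted p under 0.1, log2 fold change of 1) were applied. Fold changes use a prior count of 0.125, and the SE is the log2 fold change over the square root of F. Within the 6-group fits, groups of 1 library borrow the spread of the others.

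Members and gene lists were chosen with earlier results of these data known. Named are the members called in a comparison or at 10 CPM in a library, and of the other pathway genes the 6 largest called changes with Nrp1, Nrp2, Neo1 and Dcc. Total counts of 17040454 to 27127662 set a floor of 3 counts, which covers counting error only, since no molecular identifiers were used. Each kind of fit was first tested on simulated counts. Alternatives were DESeq2 1.42.0, RLE size factors, other filters, covariates, subsets of libraries, and leaving out each library. Gene positions are those of GENCODE M21 (GRCm38), and the library kit is not stated to keep the strand. Columns of the count table were all assigned to a library. The HER2 state of each group was taken from the study's methods.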

Additional observations from a re-analysis of the deposited data

Results flagged for a closer look

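Among 66 sets of values (33 tested members in the HER2-negative and in the HER2-positive libraries), 11 held a library far from its group by Dixon's criterion, which chance alone exceeds in about 1 of 20 sets. In the HER2-negative group, MamBo38 untreated 2 stood apart for Ntn4 (21.1 CPM), Sema4c (20.3 CPM) and Unc5c (10.3 CPM), and MamBo43 TRT of 30 days for Ntn1 (159.6 CPM). In the HER2-positive group, untreated MamBo43, the only library of tumor B there, stood apart for Sema3c (93.98 CPM), Slit2 (151 CPM), Slit3 (3.37 CPM), Sema3a (2.63 CPM) and Ntn3 (0.588 CPM), all highest, and for Sema4b (25.4 CPM), lowest. The MamBo89 clone was lowest for Sema4a (14.1 CPM).

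The effect of trastuzumab in MamBo43 differed from that in MamBo89 for 13 members by the edgeR interaction test. As differences of log2 fold changes, these were Sema3a 7.65, Sema4f 7.05, Robo1 5.96, Plxnc1 5.83, Slit3 5.38, Sema6d 4.93 and Sema5a 3.09 among the positive ones. The negative ones were Plxnb3 -5.77, Sema4a -3.73, Plxnb1 -3.45, Sema6a -3.28, Sema3f -2.76 and Sema4c -1.29. MamBo43 also lost HER2 under trastuzumab while MamBo89 did not, so the antibody and the loss of HER2 cannot be told apart in MamBo43. Over the 10 fits that left out a library, Sema5a was called in 2, Sema4c in 3, Sema4f in 7 and Plxnb3 in 8. The Sema4f value rests on 2 counts in untreated MamBo43, 0 to 2 in each MamBo89 library, and the prior count.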

How the results depend on the processing

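DESeq2, RLE size factors and the absence of a filter kept every count of called members within 1.5 times its value, although single calls changed. Slit3 between the untreated lines was lost under both DESeq2 and RLE size factors, and Sema6c within MamBo43 under RLE size factors. Sema4f was not called under DESeq2 within MamBo43 or for the interaction, and some other members gained calls. Requiring 10 counts in each library of a comparison, which drops genes absent from a group, lowered the counts of called members to 12 of 22 tested between the HER2 states (25.3% of all genes), 2 of 25 between the untreated lines (3.02%), 10 of 22 within MamBo43 (24.2%) and 8 of 22 for the interaction (23.1%). Counts summed per line and HER2 state gave 0, with 2 sums a side. Untreated MamBo43 against all 4 MamBo89 libraries gave 14, beside 18.3% of all genes. Leaving out each library gave 21 to 23 called members between the HER2 states, 13 to 16 between the untreated lines (spread pooled over groups), 13 to 21 within MamBo43, 12 to 18 between MamBo38 and MamBo43 TRT, 0 to 13 within MamBo89, 0 to 7 within MamBo38 and 7 to 16 for the interaction; the highest values within MamBo89 and MamBo38 came without the parental library and without MamBo38 untreated 1. Between the HER2 states, 31% to 36.5% of all genes were called over these fits. Within each line and for the interaction, the highest member count came with the highest share of all genes called. Between the untreated lines, and between MamBo38 and MamBo43 TRT, it did not. The interaction count was lowest without MamBo89 under 60 days of trastuzumab, where the share of all genes called was lowest too. That fit left a single treated MamBo89 library.

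Directions turned in 7 cases, and the cause was not tested. Slit2 between the HER2 states was -0.35 with tumor as a covariate and -0.38 within tumor B, where Sema3c was -1.43. Slit1 between MamBo38 and MamBo43 TRT was -2.00 with untreated 2 as the only MamBo38 library, and Ntn1 there ranged from -2.18 to 0.17 over libraries left out. Without the parental library, Plxna2 between the untreated lines was 1.05 and Sema3b within MamBo89 was 2.75. No paired analysis was run, since the labels give no replicate numbers, although schedules and name codes recur across the lines. Members near 3 counts are limited by depth, and the comparisons with untreated MamBo43 by its single library.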

Other observations

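The untreated MamBo89 clone differed from its parental library in several semaphorins and receptors, each a single library with no test, and the genes given here were picked after their values were seen. Sema5a was at 42.2 CPM in the clone and 237 CPM in the parental library, Plxna2 at 24.5 and 121 CPM, Sema3b at 3.88 and 58.4 CPM, and Sema6d at 0.485 and 4.19 CPM. In the opposite direction, Sema3c was at 28.7 and 6.63 CPM, Sema3e at 4.94 and 0.737 CPM, and Unc5c at 20.98 and 6.31 CPM. The MamBo89 libraries given trastuzumab lay on the parental side of the clone for all 7 genes.

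Within MamBo38, in genes picked the same way, untreated 2 differed from the other 3 libraries more than those did from each other for Slit1 (1.95 against 7.72 to 11.98 CPM), Slit2 (67.8 against 135 to 174 CPM), Unc5b (133 against 247 to 276 CPM), Ntn1 (57.1 against 27.5 to 29.8 CPM) and Unc5c (10.3 against 0.536 to 1.31 CPM). Those 3 share a code in their names and hold both treated cultures and an untreated one.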
